A study of Mus musculus with 6 samples.

Results

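Genes of nuclear-encoded subunits of respiratory chain complexes I to IV, with the assembly factors that share the Nduf symbol, were examined for Maf and H3K27ac in adult mouse skeletal muscle. Members were taken by symbol, as protein-coding genes of the GENCODE annotation whose names start with Nduf, Uqcr, Cox4, Cox5, Cox6, Cox7 or Cox8, together with Sdha, Sdhb, Sdhc and Sdhd. This gave 76 of 21827 protein-coding genes. A subunit gene with another symbol, such as Cyc1 of complex III, was not taken. The members comprise 44 genes of complex I (7 core subunits, 29 accessory subunits and 8 assembly factors), 4 of complex II, 8 of complex III and 18 of complex IV, and Cox7a2l and Ndufa4l2, paralogs that were counted with no complex. Chromatin came from nuclei of gastrocnemius and quadriceps of wild-type C57BL/6 N mice aged 2 months, with no genetic or drug treatment. Chromatin was precipitated with an antibody to the transcription factor Maf (2 biological replicates) or to histone H3 acetylated at lysine 27 (H3K27ac, 2 biological replicates), and 2 input samples were not analysed here. No sorting of these nuclei by cell type is described, and whether muscles of several animals were pooled is not stated in the sources used here. No group of treated or mutant animals was compared, so each result is a description of where regions lie relative to these genes.

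The respiratory chain passes electrons from NADH (complex I) and succinate (complex II) through ubiquinone to complex III, and from there through cytochrome c to complex IV, which reduces oxygen. Complexes I, III and IV pump protons across the inner mitochondrial membrane, and complex V uses the gradient to make ATP. Skeletal muscle is rich in mitochondria and replaces several ubiquitous subunits of complex IV by isoforms found in heart and skeletal muscle. H3K27ac marks active promoters and enhancers. Maf is a large basic leucine zipper factor that binds motifs built from the sequence TGCTGA.

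The Maf lists were unequal. Maf replicate 1 held 74 regions of 181 bp and replicate 2 held 5467 regions of 281 bp, while H3K27ac replicate 1 held 44887 regions (median 1476 bp) and replicate 2 held 44987 (median 1499 bp). No member lay within 50 kb of a Maf region of replicate 1, where 123 of all genes did, so every Maf region near a member comes from replicate 2 alone, while shares over all genes and all Maf regions use the merged list. The lists give positions but no usable height, and read depth is not given, so a gene could be scored only as near or not near a region. All 5 markers of skeletal fibres had an H3K27ac region within 1 kb of a start, and so did the 3 endothelial, 3 macrophage and 3 fibroblast markers, 1 of 2 adipocyte markers and the satellite cell gene Pax7. None of 3 liver and 2 neuron markers had one. An H3K27ac region at a gene therefore cannot be assigned to the myonuclei, and the share of other cells was not tested.

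Nearly all members carried H3K27ac at their promoters. In the merged lists, 73 of the 76 members (96.1%) had an H3K27ac region within 1 kb of a transcript start, where 58.3% of all protein-coding genes did. Widening the distance to 10 kb added no member (73 of 76, background 65.6%), and at 50 kb 75 of 76 (98.7%) had a region (background 78.4%). All 44 genes of complex I, all 4 of complex II and all 8 of complex III were acetylated within 1 kb, and 15 of the 18 genes of complex IV were. Replicate 1 alone gave 72 members and replicate 2 alone gave 73. The difference was Ndufaf2, an assembly factor of complex I. A region of 1223 bp lay over its start in replicate 2, shared with the start of Ercc8 on the other strand, whereas the nearest region of replicate 1 was 61296 bp away.

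**Figure D1:**
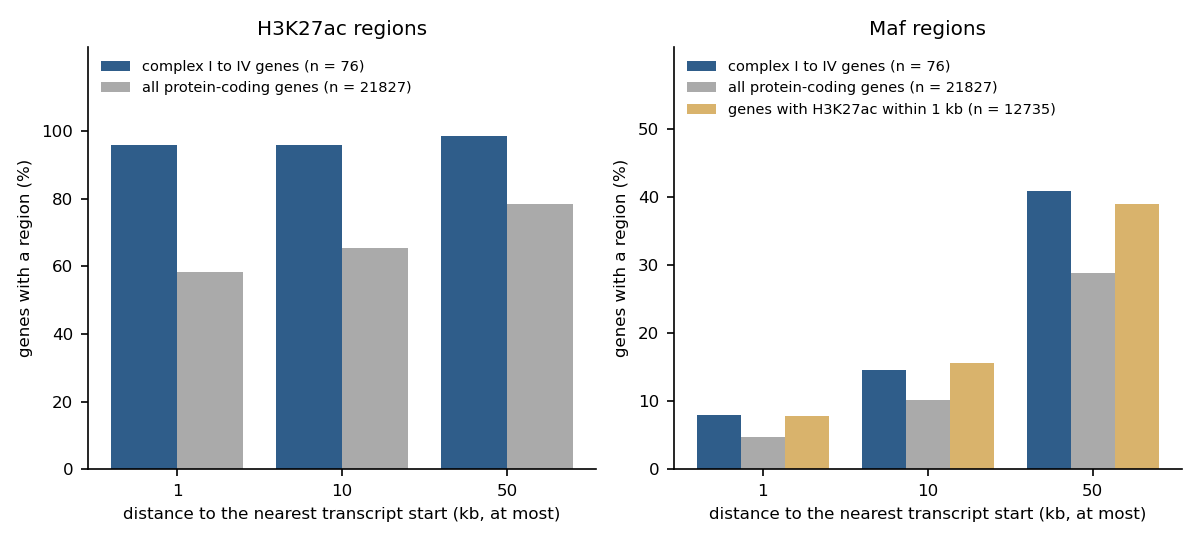
Share of genes (%, y axis) with an H3K27ac region (left) or a Maf region (right) within 1, 10 or 50 kb of a transcript start (x axis), in the merged lists, where bars stand for the complex I to IV genes, all protein-coding genes and, for Maf, protein-coding genes with H3K27ac within 1 kb. The acetylation bars of the 76 genes reach 96.1% at 1 kb against 58.3% of all genes, while their Maf bar at 10 kb (14.5%) lies beside that of acetylated genes (15.6%).

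The 3 members without acetylation within 10 kb were Cox6b2, Cox7b2 and Cox8c, isoforms of complex IV subunits that are known from testis. The nearest merged region lay 11027 bp from Cox6b2, 19469 bp from Cox8c and 619206 bp from Cox7b2. In replicate 2 alone the distances were 11327, 19484 and 619218 bp, so none of these starts was near a region in either replicate. Cyct, the testis form of cytochrome c, likewise had none within 1 kb, at 9185 bp from the nearest region. The somatic cytochrome c gene Cycs had a region of 2724 bp over its start.

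The acetylated regions over the starts were similar in length to those at other genes. The region over a start had a median length of 2237 bp in the 73 members that had one (quartiles of 1848 and 3052 bp), and 2261 bp in the 12219 protein-coding genes with such a region (quartiles of 1638 and 3675 bp). Regions of 5000 bp or more lay over 5 of the 73 members (6.85%) and over 15.8% of all genes with a region. Medians were 2030 bp in complex I, 3392 bp in complex II, 2384 bp in complex III and 2466 bp in complex IV. Within complex I, the median was 2765 bp for the 7 core subunits, 1977 bp for the 29 accessory subunits and 1587 bp for the 8 assembly factors. The ranges overlapped, as core subunits ran from 1842 to 6838 bp and accessory subunits from 1410 to 15851 bp. In 52 of the 73 members (71.2%) the region reached further downstream of the start than upstream, a share that was 71.3% among all genes.

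The replicates gave similar lengths at most members. Among 72 members with a region over a start in both lists, the median was 2058 bp in replicate 1 and 2166 bp in replicate 2, and the longer value was a median of 1.07 times the shorter one. It was more than 1.5 times the shorter one in 3 members (4.17%), where 7.02% of all genes passed that ratio. These were Ndufb10, Sdhd with 3732 and 2160 bp, and Sdhc, which lies just past the limit with 2029 and 3052 bp.

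**Figure D2:**
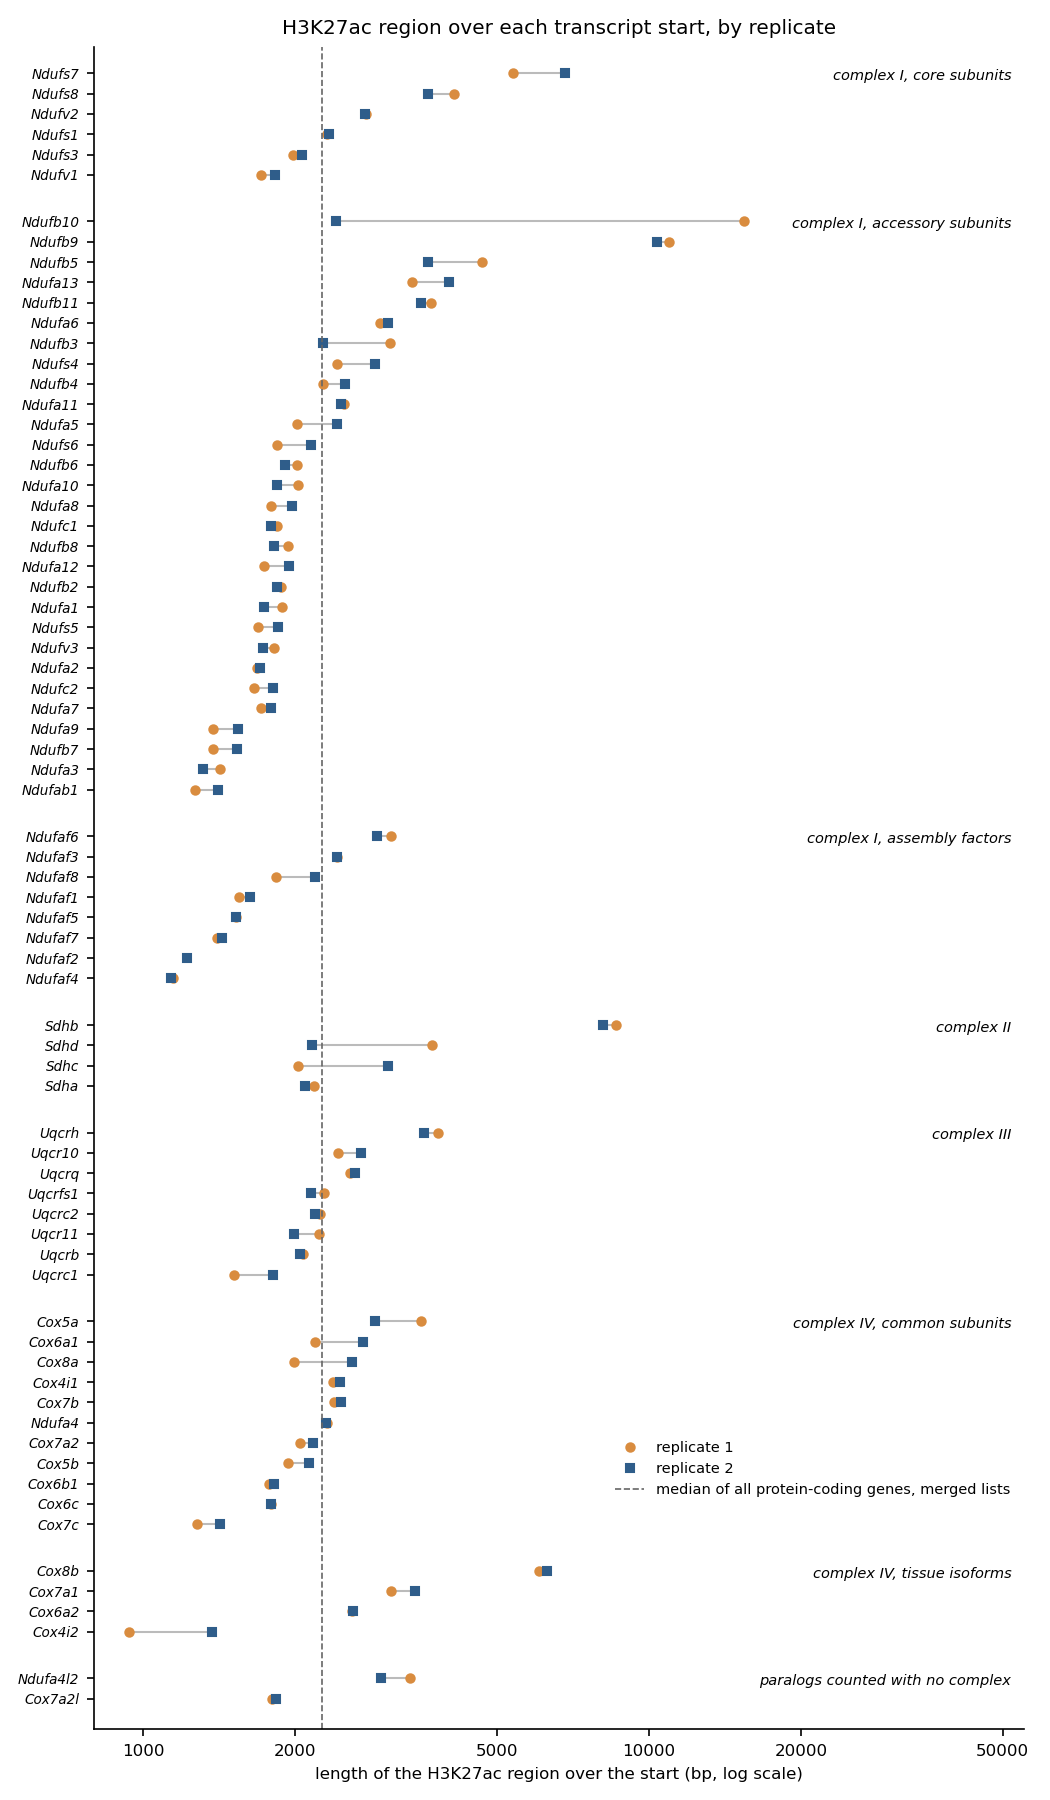
Length of the H3K27ac region over the transcript start (bp, log scale, x axis) for 72 of the 73 members that have one (y axis), grouped by complex and role, with replicate 1 as circles, replicate 2 as squares and the median of all protein-coding genes (2261 bp) as a dashed line. Most pairs of points lie close together near the dashed line, and Ndufb10 has the widest gap, from 2402 to 15440 bp.

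The longest merged region lay over Ndufb10, an accessory subunit of complex I. It was 15851 bp long and also covered the starts of Msrb1 and of Rpl3l, a ribosomal protein gene of striated muscle. Its length rested on replicate 1, where the region measured 15440 bp, against 2402 bp in replicate 2. The region over Ndufb9, also an accessory subunit, was 10950 bp long in replicate 1 and 10357 bp in replicate 2, and reached 9660 bp upstream over the start of Tatdn1. Sdhb, the iron-sulfur subunit of complex II, followed with 8589 and 8095 bp. Ndufs7, a core subunit next to the ubiquinone site, had 5396 and 6838 bp, and its region covered 82.9% of the gene body. Cox8b completed the 5 longest. The shortest regions lay over the assembly factors Ndufaf4 (1146 and 1135 bp) and Ndufaf2 (replicate 2 only, 1223 bp), over Cox4i2 (940 and 1369 bp), over Ndufab1, the mitochondrial acyl carrier protein (1268 and 1410 bp), and over Cox7c (1281 and 1420 bp).

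Many of these promoters faced a neighbour. A protein-coding start on the opposite strand lay within 1 kb of a start in 25 of the 76 members (32.9%), where 10.5% of all protein-coding genes and 16.7% of those with H3K27ac within 1 kb had one. The share differed by complex. It was 24 of 56 genes in complexes I to III (42.9%) and 1 of 18 in complex IV, namely Cox4i1 with Emc8 and Gm27021. Opposite partners included Eef1b2 at Ndufs1, Kbtbd4 at Ndufs3, Timm8b at Sdhd, Ccdc127 at Sdha, Lrrc41 at Uqcrh and Mrpl36 and Mrpl47, genes of mitochondrial ribosomal proteins, at Ndufs6 and Ndufb5. At 26 of the 73 acetylated members (35.6%) the region over the start also covered the start of another gene, against 20.3% of all genes with a region. An acetylated region of this kind cannot be ascribed to the member or to its neighbour.

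Among the isoforms of complex IV, only those known from testis lacked H3K27ac at the start. Cox6a2, Cox7a1 and Cox8b, the heart and skeletal muscle isoforms of subunits 6a, 7a and 8, all carried H3K27ac, and in each the merged regions covered the whole gene. These genes are only 953, 1935 and 1502 bp long, shorter than the members' median region over a start (2237 bp). The ubiquitous Cox8a, of 2464 bp, was covered over 90.8% of its length. The region over the start of Cox6a2 measured 2592 bp in replicate 1 and 2601 bp in replicate 2, and that of its ubiquitous counterpart Cox6a1 measured 2189 and 2717 bp. For Cox7a1 the lengths were 3086 and 3441 bp, and for Cox7a2 2044 and 2171 bp. The widest difference was at subunit 8, with 6068 and 6300 bp at Cox8b and 1989 and 2590 bp at Cox8a. At subunits 7a and 8, both replicates of the muscle isoform exceeded both replicates of the ubiquitous one, and at subunit 6a the values interleaved.

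Ubiquitous and testis isoforms formed the opposite contrast. The start of Cox6b1 had regions of 1774 and 1812 bp and that of Cox7b had 2390 and 2466 bp, while Cox6b2, Cox7b2 and Cox8c had none. Cox4i1 had 2380 and 2448 bp, against 940 and 1369 bp at Cox4i2, an isoform known from lung. Ndufa4, now placed in complex IV, had 2309 and 2299 bp. Its hypoxia-induced paralog Ndufa4l2 had 3366 and 2953 bp and was covered over its whole length of 2188 bp.

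**Figure D3:**
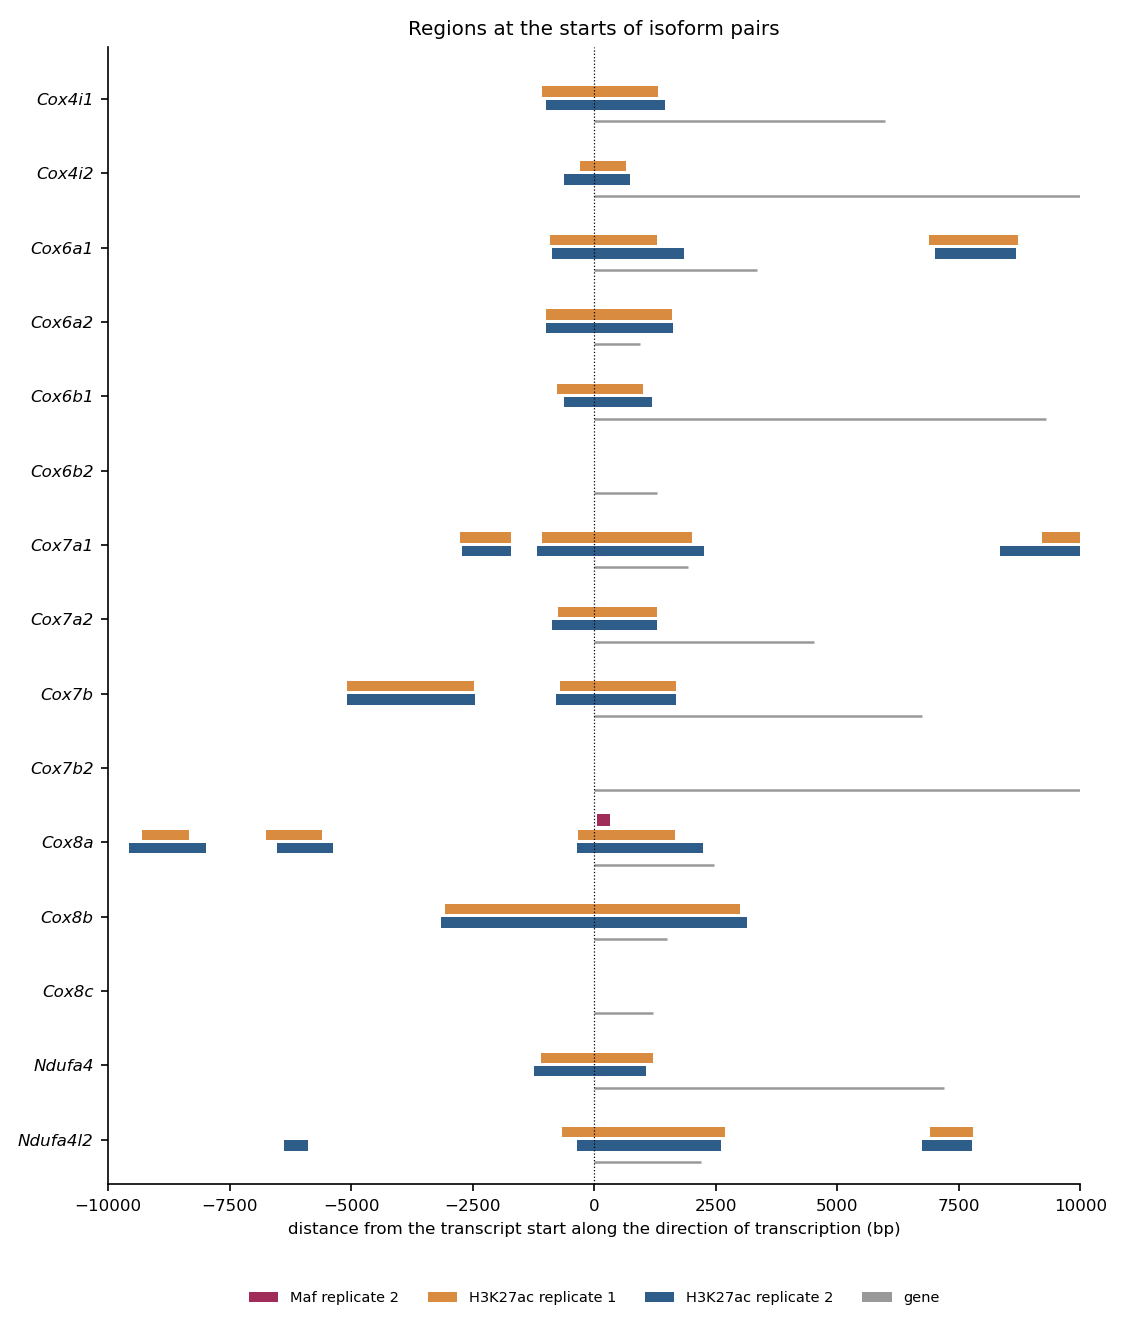
H3K27ac regions of replicate 1 (orange) and replicate 2 (blue) and Maf regions of replicate 2 (dark red) within 10 kb of the starts of 15 isoform genes, with position along the direction of transcription (bp, x axis) and the gene as a grey line. No region is drawn at Cox6b2, Cox7b2 or Cox8c, and the regions at Cox6a2, Cox7a1 and Cox8b extend past both ends of the gene.

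To show how the promoters of isoforms with and without acetylation differ in sequence, stretches just before the start are given from RefSeq (GRCm38.p6, 5′ to 3′ on the strand of the gene), with CG dinucleotides in capitals. Cox8a and Cox8b, both acetylated, are added as the subunit with the largest difference in length. Parts annotated as untranslated in another transcript were left out. The positions are chr7:30626152-30626301 (- strand) for Cox6b1, chr7:4753095-4753225 (- strand) for Cox6b2, chrX:106015550-106015699 (+ strand) for Cox7b, chr5:71548206-71548355 (- strand) for Cox7b2, chr19:7217617-7217766 (- strand) for Cox8a and chr7:140900447-140900596 (- strand) for Cox8b.
Cox6b1: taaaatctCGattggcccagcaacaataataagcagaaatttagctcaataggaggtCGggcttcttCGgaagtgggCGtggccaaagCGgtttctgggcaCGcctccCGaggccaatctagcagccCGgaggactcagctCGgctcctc
Cox6b2: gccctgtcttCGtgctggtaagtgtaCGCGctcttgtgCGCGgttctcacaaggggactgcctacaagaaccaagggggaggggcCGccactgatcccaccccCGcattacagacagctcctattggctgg
Cox7b: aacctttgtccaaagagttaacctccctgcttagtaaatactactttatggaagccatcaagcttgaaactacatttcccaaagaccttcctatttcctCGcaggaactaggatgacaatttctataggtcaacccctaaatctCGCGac
Cox7b2: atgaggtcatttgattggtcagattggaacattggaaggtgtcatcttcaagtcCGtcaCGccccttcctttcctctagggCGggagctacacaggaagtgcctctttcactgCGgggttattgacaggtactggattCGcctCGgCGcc
Cox8a: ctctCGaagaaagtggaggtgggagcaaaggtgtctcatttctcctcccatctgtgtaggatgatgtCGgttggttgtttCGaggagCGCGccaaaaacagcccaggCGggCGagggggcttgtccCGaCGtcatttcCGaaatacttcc
Cox8b: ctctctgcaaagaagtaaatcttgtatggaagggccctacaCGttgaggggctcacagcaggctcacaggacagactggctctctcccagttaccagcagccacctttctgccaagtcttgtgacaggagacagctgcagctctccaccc

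The ratio of observed to expected CG dinucleotides over the 300 bp promoter was 0.807 in Cox6b1 and 0.432 in Cox6b2, 0.368 in Cox7b and 0.564 in Cox7b2, and 0.842 in Cox8a and 0.115 in Cox8b. The acetylated promoter had the higher ratio in the first pair and the lower one in the second. Cox8b had the lowest ratio of the 61 members with a RefSeq promoter, followed by Cox7a1 with 0.333. The median ratio was 0.829 in the members, 0.597 in all 16515 promoters matched to a protein-coding gene and 0.764 in the 9929 of them with H3K27ac within 1 kb. It exceeded 0.6 in 49 of 61 members (80.3%), in 49.8% of all promoters and in 71.6% of the acetylated ones.

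Maf regions were about as frequent at the members as at acetylated genes in general. Within 1 kb of a start, 6 of 76 members (7.89%) had a Maf region, where 4.71% of all protein-coding genes and 7.85% of those with H3K27ac within 1 kb did. Within 10 kb there were 11 members (14.5%), against 10.2% of all and 15.6% of acetylated genes. Within 50 kb there were 31 (40.8%), against 28.8% and 38.9%. Restricting the members to the 73 acetylated ones gave 8.22%, 15.1% and 42.5%. The exact (Clopper-Pearson) 95% intervals of the members' shares, which cover counting error only, were 2.95 to 16.4% at 1 kb, 7.45 to 24.4% at 10 kb and 29.6 to 52.7% at 50 kb. They held the share of acetylated genes at each distance and that of all genes at 1 and 10 kb. By complex, Maf regions within 50 kb were found at 17 of 44 genes of complex I, 2 of 4 of complex II, 4 of 8 of complex III and 7 of 18 of complex IV, and at Ndufa4l2.

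The Maf regions near members were usually acetylated. All 11 Maf regions within 10 kb overlapped an H3K27ac region, where 84.8% of the Maf regions within 10 kb of any gene did. For the 6 of them within 1 kb, the share at any gene was 95.9%. Within 50 kb the count was 38 of 46, against 75.6%, and it was 69.2% over all 5485 merged Maf regions. A member had the nearest start for 6 of 6 Maf regions within 1 kb, 8 of 11 within 10 kb and 14 of 46 within 50 kb. When each Maf region was given to the gene of its nearest start only, 13 members (17.1%) and 14.2% of all genes received one.

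**Figure D4:**
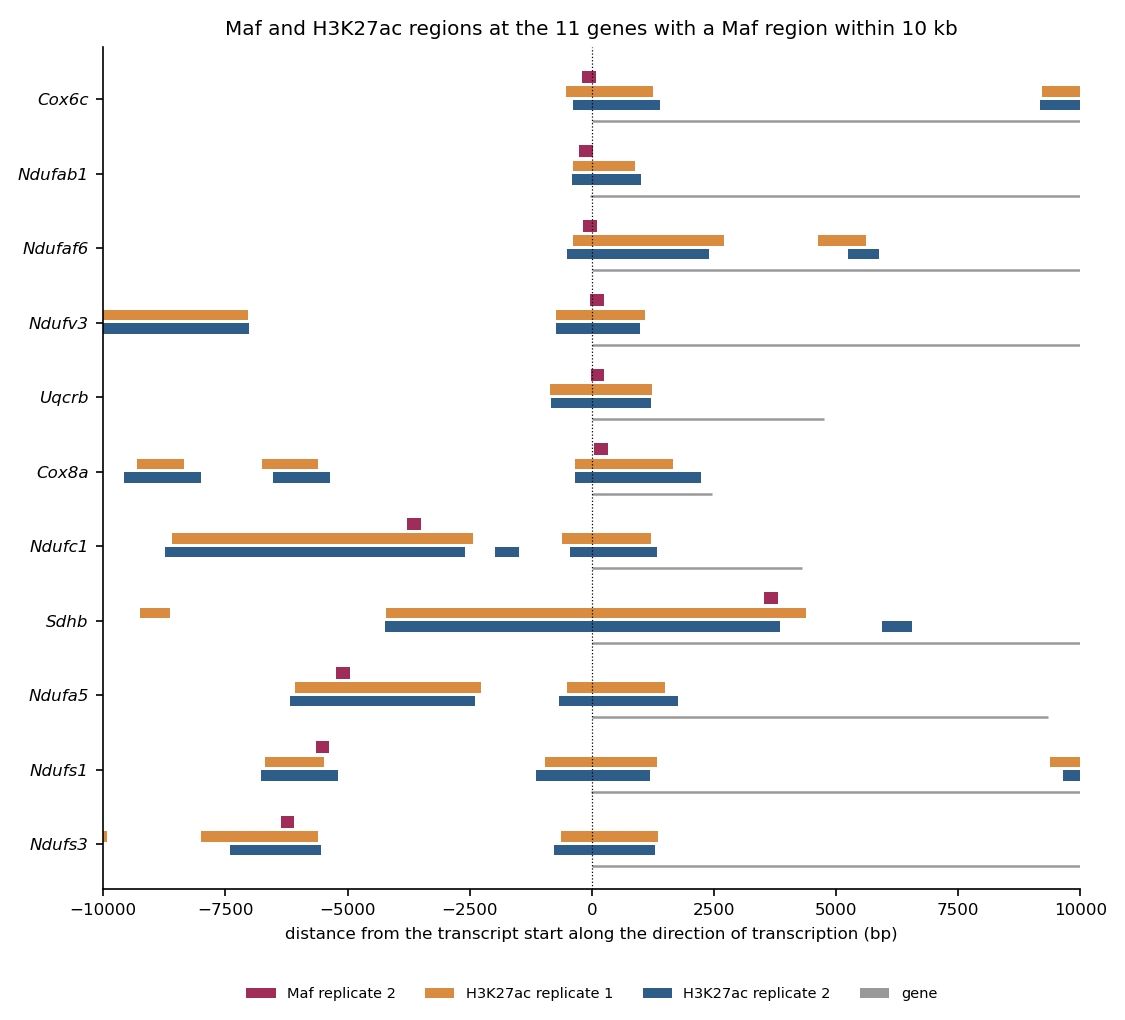
Maf regions of replicate 2 (dark red) and H3K27ac regions of replicate 1 (orange) and replicate 2 (blue) around the 11 members with a Maf region within 10 kb, with distance from the transcript start along the direction of transcription (bp, x axis) and the gene as a grey line. The upper 6 genes have the Maf region at the start, and in the lower 5 it lies 3494 to 6091 bp away.

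At 6 members the Maf region lay at the promoter. Positions are those of the region's centre from the transcript start, with negative values upstream. At Cox6c, a subunit of complex IV, the centre lay at -59 bp (chr15:35938165-35938445). At Ndufab1 it lay at -119 bp (chr7:122101830-122102110), and at Ndufaf6, an assembly factor of complex I, at -32 bp (chr4:11076096-11076376). At Ndufv3, an accessory subunit of the NADH-oxidising module, the centre lay at 100 bp (chr17:31520075-31520355), and at Uqcrb, a small subunit of complex III, at 118 bp (chr13:66905120-66905400), where the region also covered exon sequence of Gm10767. The regions at these 5 genes covered the start. At Cox8a it lay at 189 bp, with the nearest edge 49 bp from the start (chr19:7217287-7217567). Each of the 6 regions touched an exon of the member, and those of Cox8a, Ndufaf6, Ndufv3 and Uqcrb reached into its coding part. They stood at positions 1470 to 3991 of the 5467 entries of the replicate 2 list, whose order is not explained in the sources used here.

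The sequence TGCTGA was then searched in these promoter regions. Of the 6 regions, 1 held it on either strand, namely that of Cox8a, and none held the longer TGCTGAC, every match of which is also a match of TGCTGA. Among all 965 Maf regions within 1 kb of a protein-coding start, 36.8% held TGCTGA and 18.3% TGCTGAC. With only 6 regions, the members' shares cannot be told apart from these. The Cox8a match lay 129 bp downstream of the start in the coding part of the first exon. The stretch is given from GRCm38, chr19:7217327-7217512, + strand, with the match in capitals. It appears there as TCAGCA, since the gene and the match are on the other strand.
Cox8a: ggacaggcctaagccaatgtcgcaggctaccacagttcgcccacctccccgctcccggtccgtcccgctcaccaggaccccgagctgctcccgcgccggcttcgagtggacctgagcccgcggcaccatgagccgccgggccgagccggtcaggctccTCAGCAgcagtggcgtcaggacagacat

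The Cox8a region also held AAGGTCA, a motif of the estrogen-related receptors (ERR), 65 bp downstream of the start and outside the stretch shown. The Cox6c region held the E-box CAGCTG at -18 bp and an NRF1 motif (GCGCANGCG) at 62 bp from the start. Those of Ndufab1 and Ndufv3 held the Sp1 motif GGGCGG, and that of Uqcrb held none of the 11 motifs searched.

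In the other 5 members within 10 kb the Maf region lay away from the promoter. Of these 5 regions, 4 held TGCTGA, where 56.9% of the 1009 Maf regions at 1 to 10 kb from any start did. With only 5 regions, the members' share cannot be told apart from this. The region near Sdhb (chr4:140964727-140965007) lay in an intron of Sdhb, 3664 bp downstream of its start and under the 8617 bp acetylated region of that gene. It held TGCTGA at -18 and 88 bp from its centre, of which the first was part of a TGCTGAC. The region nearest to Ndufc1, an accessory subunit of complex I (chr3:51412482-51412762), was intergenic, with its centre at -3634 bp from Ndufc1 and nearer to the start of Naa15 at 2526 bp. It held TGCTGA 25 bp from its centre and stood at position 35 of 5467 in the list. The region near Ndufs1, the largest core subunit of complex I (chr1:63182193-63182473), was intergenic at -5511 bp, with Eef1b2 as the nearest start at 5203 bp, and held TGCTGA at -56 bp from its centre. That near Ndufs3, another core subunit (chr2:90910918-90911198), lay at -6231 bp in an intron of Kbtbd4 and held TGCTGAC at -3 and 106 bp from its centre. A Mef2 motif at -123 bp in the same region was repeat sequence over all its 10 bases.

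These 4 stretches are shown because they are the distal Maf regions with a Maf motif, which is in capitals (TGCTGA, or TCAGCA on the other strand). They are given from GRCm38, + strand, 5′ to 3′, at chr4:140964767-140964968 near Sdhb, chr3:51412522-51412722 near Ndufc1, chr1:63182233-63182433 near Ndufs1 and chr2:90910958-90911177 near Ndufs3.
Sdhb: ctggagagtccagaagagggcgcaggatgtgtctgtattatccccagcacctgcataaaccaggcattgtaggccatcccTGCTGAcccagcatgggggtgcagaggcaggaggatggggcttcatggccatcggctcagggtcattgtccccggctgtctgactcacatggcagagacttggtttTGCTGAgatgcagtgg
Ndufc1: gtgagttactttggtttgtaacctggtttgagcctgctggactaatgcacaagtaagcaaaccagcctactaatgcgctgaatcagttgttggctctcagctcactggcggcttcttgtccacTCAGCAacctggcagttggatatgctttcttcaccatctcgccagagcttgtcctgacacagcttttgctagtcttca
Ndufs1: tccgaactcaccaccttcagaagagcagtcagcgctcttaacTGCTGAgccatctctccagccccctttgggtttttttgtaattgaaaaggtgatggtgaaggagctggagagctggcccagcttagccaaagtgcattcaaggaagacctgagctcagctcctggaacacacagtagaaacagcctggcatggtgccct
Ndufs3: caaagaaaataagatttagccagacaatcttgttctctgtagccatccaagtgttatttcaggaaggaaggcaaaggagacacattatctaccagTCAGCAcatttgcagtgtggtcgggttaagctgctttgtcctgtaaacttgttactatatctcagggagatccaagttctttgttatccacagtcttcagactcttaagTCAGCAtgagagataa

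The Ndufc1 and Sdhb regions also held the AP-1 motif TGANTCA, at -19 and 63 bp from the centre. In the Ndufs1 region, 141 of 281 bases (50.2%) were masked as repeats in the reference genome, and all 6 bases of its TGCTGA were among them. None of the TGCTGA matches at Sdhb, Ndufc1 or Ndufs3 was masked. The fifth region, near Ndufa5, an accessory subunit of complex I (chr6:24532972-24533252), lay at -5099 bp in an intron of Asb15 and held no TGCTGA.

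Beyond 10 kb, Maf regions mostly lay nearest to other genes. The nearest was at 12380 bp from Ndufa3, where it sat 22 bp from the start of Tfpt. The next was 13117 bp from Ndufa4l2, 7 bp from the start of the muscle gene Stac3. Those at 13486 bp from Cox5a and 14581 bp from Cox6a2 overlapped no H3K27ac, and that at 14173 bp from Cox7a1 lay 104 bp from the start of Zfp146. Of the 35 Maf regions at 10 to 50 kb from members, 11 (31.4%) held TGCTGA. Several of them lay at the promoter of another gene, so this share has no background of the same kind here.

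Promoter sequences were next compared with other genes, as 61 of the 76 members had a RefSeq promoter of GRCm38.p6 (250 bases before to 50 after the start). Those with no entry included Cox4i1, Cox4i2, Cox6a2, Cox6c, Cox8c, Ndufa2, Ndufa4l2, Ndufaf6, Ndufb9, Ndufs1, Sdhc, Uqcrb, Uqcrc2 and Uqcrq. Motifs were searched on both strands, and a match is a description of letters, not a binding site. The NRF1 motif GCGCANGCG was in 15 of 61 members (24.6%), where 9.18% of all promoters and 13.9% of acetylated ones held it. The YY1 motif AAGATGG was in 9 (14.8%), against 6.43% and 7.19%. The Ets motif CCGGAAG, bound by GABP, was in 13 (21.3%), against 12.3% and 18.2%. Exact intervals of the members' shares were made as for Maf and cover counting error only. They were 14.5 to 37.3% for NRF1, 6.98 to 26.2% for YY1 and 11.9 to 33.7% for Ets. The NRF1 interval held neither background, and the YY1 interval held that of acetylated promoters. The Ets interval held both, so the Ets share cannot be told apart from its backgrounds. NRF1, YY1 and GABP are known regulators of nuclear genes for mitochondrial proteins. The NRF1, Ets and Sp1 motifs contain CG, and the part of CG content in their shares was not tested.

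Most other motifs were near or below their backgrounds. The Sp1 motif GGGCGG was in 29 members (47.5%), against 48.0% of all and 64.5% of acetylated promoters, and CCAAT was in 25 (41.0%), against 38.7% and 38.2%. The E-box CAGCTG was in 5 members (8.20%), against 15.3% in both backgrounds. AP-1 TGANTCA was in 5 (8.20%), above its backgrounds of 7.10% and 4.77%. Within 500 bp of the gene's 5′ end the AP-1 order was the opposite, with 11.5% of members, 18.8% of all and 15.1% of acetylated genes. TGCTGA was in 7 members (11.5%), namely Cox7a1, Cox7b, Ndufa10, Ndufa3, Ndufa5, Ndufaf8 and Ndufs5, against 17.7% and 14.9%. None of these 7 had a Maf region within 1 kb, where 6 of the 76 members (7.89%) did. Of those 6, Cox6c, Ndufaf6 and Uqcrb had no promoter entry, so an absence among 7 genes is uninformative. TGCTGAC was in 0 of 61, against 4.18% and 3.64%, and the Mef2 motif in 0 of 61, against 2.87% and 1.78%.

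The ERR motif AAGGTCA was frequent in a wider window. Estrogen-related receptors are nuclear receptors known to drive genes of oxidative metabolism together with PGC-1 coactivators. In the 300 bp promoters the motif was in 4 members (6.56%), against 3.95% and 3.04%. Within 500 bp to either side of the gene's 5′ end it was in 22 of 61 (36.1%), against 14.7% of all and 12.7% of acetylated genes. The share of members was above both backgrounds in each of 5 steps along this window, and the gap was widest downstream of the 5′ end. In the step from 100 to 300 bp after it, 11 members (18.0%) held the motif, against 2.71% and 2.20%, whereas from 100 bp before to 100 bp after the 5′ end 3 members (4.92%) did, against 2.43% and 1.87%. The shares were 9.84% at 300 to 500 bp after the 5′ end (3.21% and 2.71%), 4.92% at 100 to 300 bp before it (3.57% of all genes) and 8.20% at 300 to 500 bp before it (3.90% and 3.75%). NRF1, Ets and YY1 motifs were most frequent at the 5′ end itself, in the members and in both backgrounds. From 100 bp before to 100 bp after it, NRF1 was in 13 members (21.3%, against 7.42% and 11.2%), Ets in 13 (21.3%, against 10.1% and 15.1%) and YY1 in 10 (16.4%, against 5.14% and 5.98%). The steps were set after the count in the wider window had been seen. In the wider window as a whole, NRF1 was in 29.5% of members (13.1% of all and 19.4% of acetylated genes), Ets in 32.8% (28.4% of acetylated genes) and YY1 in 34.4% (18.5% of all and 19.1% of acetylated genes). TGCTGA was in 41.0% (47.8% of all and 43.4% of acetylated genes) and TGCTGAC in 14.8% (12.8% and 11.9%), so the longer motif no longer lay below the background there.

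**Figure D5:**
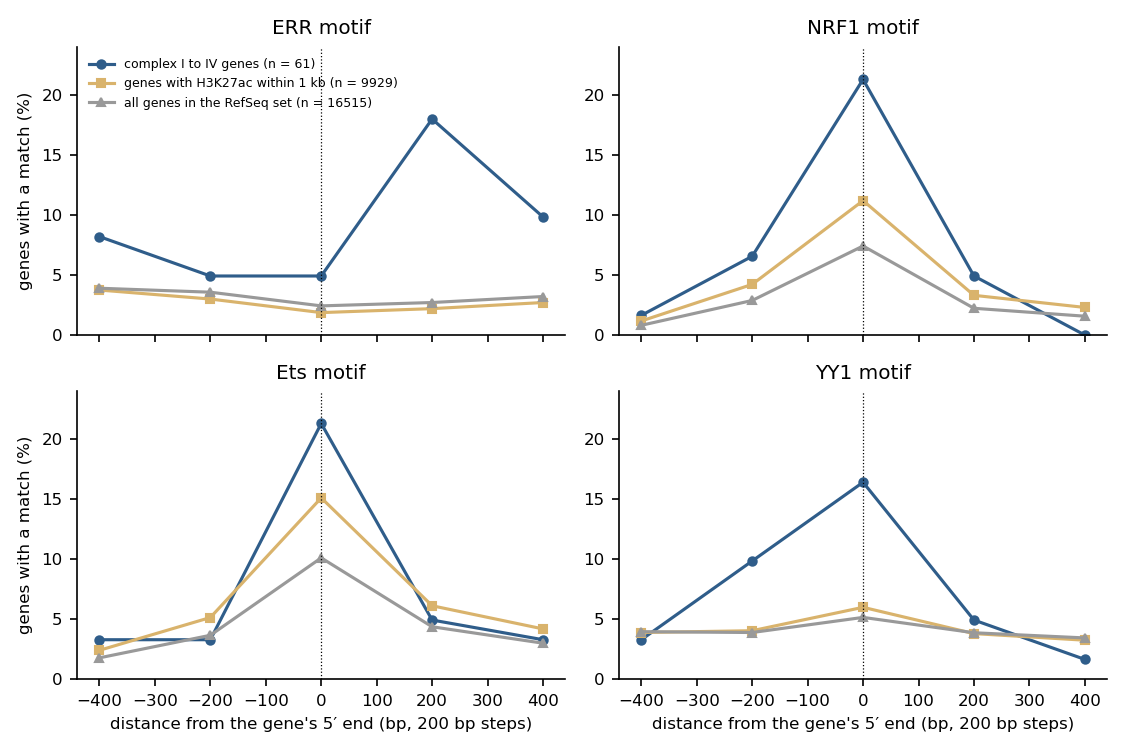
Share of genes (%, y axis) with an ERR, NRF1, Ets or YY1 motif in 5 equal steps from 500 bp before to 500 bp after the gene's 5′ end (x axis, bp, plotted at the middle of each step), for the complex I to IV genes in the RefSeq set (circles), genes with H3K27ac within 1 kb (squares) and all genes of the set (triangles). ERR motifs of the members rise to 18.0% in the step from 100 to 300 bp downstream, and the other 3 motifs are highest at the 5′ end in all groups.

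All 29 ERR matches in the 22 members lay under an H3K27ac region. The search window was shorter than the shortest region over a member's start (1146 bp), so this count was largely set by the search. The step from 100 to 300 bp had the widest gap to the backgrounds, and was picked from 5 steps set after the wider count was seen. Its 11 matches are therefore a selected group, with first bases from 109 bp (Ndufs6) to 294 bp (Uqcrh) after the 5′ end. They are given as short windows on the strand of the gene, with 10 bases to either side. The match is in capitals (AAGGTCA, or TGACCTT where it is on the other strand). They come from GRCm38 and lie at chr5:115348743-115348769 (Cox6a1), chr17:56717979-56718005 (Ndufa11), chr6:126848996-126849022 (Ndufa9), chr3:32737248-32737274 (Ndufb5), chr3:51408738-51408764 (Ndufc1), chr13:73328417-73328443 (Ndufs6), chr19:3912619-3912645 (Ndufs8), chr13:74350021-74350047 (Sdha), chr11:4704121-4704147 (Uqcr10), chr9:108936897-108936923 (Uqcrc1) and chr4:116074761-116074787 (Uqcrh).
Cox6a1: cccggggcggTGACCTTggcgggaggg
Ndufa11: tctggaagcaAAGGTCAgagggcgcgc
Ndufa9: gacgggaacaTGACCTTtcttcctcat
Ndufb5: tgtttccaggTGACCTTggggacctcc
Ndufc1: cgacctgcagTGACCTTcactggccgc
Ndufs6: gcggcggtgcTGACCTTccgccggctg
Ndufs8: gtgtcaccgcTGACCTTatgaagtctg
Sdha: ctttccggcgAAGGTCAcgaccccgag
Uqcr10: tgggccatccTGACCTTgggcccgcct
Uqcrc1: gggccgtgggAAGGTCAtggcggaggg
Uqcrh: attctttggtTGACCTTgggcagatta

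These 11 members belong to all 4 complexes, with 6 genes of complex I, 1 of complex II, 3 of complex III and 1 of complex IV. The extended form TNAAGGTCA, chosen after these values were seen, was present at 9 of the 29 matches of the wider window (31.0%). That share was 28.6% over all genes and 25.8% over acetylated genes. Among the 11 matches shown above, only that of Ndufc1 had the extended form.

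Other genes of the pathway mostly had H3K27ac within 1 kb too, where 58.3% of all protein-coding genes did, but some lists had longer regions. The median over a start was 2237 bp in the members. All 17 genes with symbols starting with Atp5, taken as complex V, had H3K27ac within 1 kb, with a median of 2918 bp over the start. Maf regions lay within 1, 10 and 50 kb of 0, 2 and 7 of them (0, 11.8 and 41.2%). The same shares were 4.71, 10.2 and 28.8% of all protein-coding genes and 7.85, 15.6 and 38.9% of acetylated ones. The lists are short, and no difference from these shares was tested. Assembly genes of complexes II to IV were taken as a list of 26 names, which need not be complete. All 26 were acetylated within 1 kb, with a median of 2262 bp over the start. Of these genes, 2, 4 and 14 (7.69, 15.4 and 53.8%) had a Maf region within 1, 10 and 50 kb. Those within 1 kb were Sdhaf3, an assembly factor of complex II, and Cox16, an assembly factor of complex IV, with Maf regions at 54 and 51 bp. The 9 regulators (Ppargc1a, Ppargc1b, Esrra, Esrrb, Esrrg, Nrf1, Gabpa, Tfam and Yy1) were all acetylated within 1 kb, with a median of 3515 bp over the start. None had a Maf region within 10 kb, and 5 (55.6%) had one within 50 kb, the nearest being Esrra at 12168 bp. Esrrg had H3K27ac in replicate 1 only, with a region of 793 bp over a start.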

How the data were processed

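ChIP-seq of Maf and H3K27ac was made from nuclei of adult gastrocnemius and quadriceps, with 2 biological replicates per target. The submitters' processing notes name Bowtie2 2.3.2, Picard 2.10.3, bcl2fastq 2.17, FastQC and HOMER, and the builds mm10 and GRCm38. The authors deposited 1 region list per replicate. Its score column, as deposited, is 1 for every region, so only positions were used. The study names a false discovery rate as the threshold for Maf peaks, and other caller settings and the use of the input are not given in the sources used here.

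Starts and ends were read as BED and converted to 1-based positions. Replicates were merged by joining overlapping or touching regions on 19 autosomes, X and Y. No region passed the end of a GRCm38 chromosome. Distances ran from the nearest edge of a region to any of 41433 starts of protein-coding transcripts in the GENCODE M21 basic set. Overlap needed 1 shared base. Python 3.11.15 and pysam 0.24.0 were used, and distance and motif functions were tested on simulated data. Positions carry no replicate error, so counts stand beside the same counts over all genes and no test was made.

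The members and lists were chosen with earlier results of these data known. Named were all members with Maf within 10 kb, the 5 nearest beyond, those without H3K27ac or with it in 1 replicate only, the 5 longest and 5 shortest regions, and isoform pairs. Promoters came from RefSeq (GRCm38.p6), with the first entry taken where a gene has several. Opposite-strand starts, CG content, motif positions and repeats were added after the first values were seen, as was a comprehensive annotation as an alternative. The values of 1 member are not reported here singly, although it is in the counts and medians.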

Additional observations from a re-analysis of the deposited data

How the results depend on the processing

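No paired analysis was possible because the results are counts of regions and come from no test. The Maf counts rest on replicate 2. Leaving out a replicate gave 0 to 6 members within 1 kb, 0 to 11 within 10 kb, 0 to 31 within 50 kb and 0 to 13 members nearest to a Maf region, with 0 each time replicate 2 was the one left out. Regions present in both replicates gave 0 members at 1, 10 and 50 kb. The first 50% of the Maf replicate 2 list, in list order, gave 4, 6 and 18 members within 1, 10 and 50 kb (5.26, 7.89 and 23.7%). The shares of all genes were 2.80, 5.92 and 17.7%, and those of acetylated genes were not counted for this setting. Counting every gene within 50 kb gave 31 members in place of the 13 nearest to a region. The median length over a start was 2057.5 to 2160 bp in single replicates, and 2458.5 bp were covered within 5 kb of the starts (2657 bp in genes with a region over a start). H3K27ac counts, distances to region centres, gene 5′ ends and the comprehensive annotation stayed within 1.5 times. Region height and read depth are unknown, so weak and strong regions count alike.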
